A study of Mus musculus with 8 samples.

Results

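The smooth muscle contractile genes examined here are 9 genes named by symbol: Acta2, Actg2, Tagln, Cnn1, Cald1, Lmod1, Myh11, Mylk and Synpo2. They were taken as 9 rows of the 27179 in the deposited table of raw counts, matched through their Entrez Gene identifiers, and the rule uses no measured value. The table holds bulk RNA-seq of cells sorted from the lungs of Eml4-Alk mice, with 4 libraries of a QZ1-hi population and 4 of a QZ1-lo population. QZ1 is a quenched Cy5 probe that becomes fluorescent, and able to bind nearby cells, when proteases cut its linker, so that the comparison asks which transcripts mark the cells found near that activity. All 9 genes passed the filter on low counts that left 15583 genes in the test, Cnn1 only through its QZ1-lo libraries.

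Both populations came from female C57BL/6J mice (C57BL/6 in the labels) of the same genotype and treatment, so no untreated or healthy library enters the comparison. An adenovirus with Cas9 and guide RNAs had been given into the airways to rearrange Eml4 and Alk, which confines the rearrangement to infected cells and their progeny; every other cell of the lung keeps its own genome. The mice were 18 to 22 weeks old, were 11 to 12 weeks past tumor induction, and received 4.5 nmol of QZ1-(PEG2K) in a tail vein 2 h before the lungs were taken. Live cells without CD45 and CD11b on their surface were gated on QZ1 signal against EpCAM, and at least 100000 cells per population were lysed together. Nothing in the labels says which QZ1-hi library shares a mouse with which QZ1-lo library, or that the libraries come from separate mice, so p-values below measure the spread between these libraries. In pooled RNA of this kind, fewer cells of a type and less RNA per cell cannot be told apart.

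Smooth muscle shortens when myosin thick filaments pull on actin thin filaments that are anchored in dense bodies rather than in striations. A rise in calcium activates myosin light chain kinase, which phosphorylates the myosin light chain and starts the cycle, while caldesmon, calponin and transgelin bind the thin filament. In the lung these proteins are known from the walls of airways and vessels, and part of the set is also made by pericytes and myofibroblasts. Calponin and smooth muscle myosin heavy chain are usually taken as the marks of mature smooth muscle, whereas caldesmon and light chain kinase have other forms in many non-muscle cells. The rows add up all forms of a gene, so the muscle and non-muscle forms of Cald1 and Mylk cannot be told apart.

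Because actins differ little from each other, the last 60 coding bases before the stop codon of 6 actin transcripts of GENCODE M21 are set out to show how far reads from Acta2 can be told from those of its relatives. Capitals mark the bases that differ from Acta2.
Acta2: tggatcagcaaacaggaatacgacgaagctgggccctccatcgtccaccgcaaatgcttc
Actg2: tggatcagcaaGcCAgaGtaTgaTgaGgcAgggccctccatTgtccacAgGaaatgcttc
Acta1: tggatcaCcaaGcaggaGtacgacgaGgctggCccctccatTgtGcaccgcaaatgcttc
Actc1: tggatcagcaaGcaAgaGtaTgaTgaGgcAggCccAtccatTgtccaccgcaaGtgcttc
Actb: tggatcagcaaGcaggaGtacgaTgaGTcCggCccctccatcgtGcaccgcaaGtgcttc
Actg1: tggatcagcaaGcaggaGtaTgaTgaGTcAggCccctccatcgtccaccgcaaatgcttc
In this stretch Acta1 differed from Acta2 at 7 bases, Actg1 at 8, Actb at 9, and Actg2 and Actc1 at 11 each. Counted back from the stop codon over almost the whole coding sequence, 84.4% of the bases of Actg2 and 83.7% of those of Actb were the same as in Acta2. The longest run shared without a difference was 56 bases, with Actg1, and only 0.326% of the 50-base stretches of the Acta2 exons occurred in any other gene. The shares were highest in Tagln, at 58.3%, and Mylk, at 4.56%, mostly with the genes Gm48529 and E130310I04Rik that lie opposite them. Myh11 shared 0.340% of such stretches, mostly with Myh9, Synpo2 shared 0.038%, and Actg2, Cnn1, Lmod1 and Cald1 shared none.

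The libraries held 18380918 to 26847938 counts, and a difference between the populations in these totals was not detected (two-sided p = 0.943 by an exact permutation test of the means, for which 4 libraries against 4 allow no p under 0.0286). The share of mitochondrial genes was 56.0% ± 10.1 in the QZ1-hi libraries and 41.9% ± 8.50 in the QZ1-lo libraries (mean ± SD, n = 4 each; two-sided p = 0.114 by the same exact permutation test). That left 8749446 to 16389316 counts per library outside mitochondrial and ribosomal RNA genes, and 3 counts, taken as the floor, were worth 0.0894 to 0.179 CPM. CPM is the count divided by the library total after TMM scaling, per 1000000, and such floors cover counting error only. Log2 fold changes are of QZ1-hi relative to QZ1-lo from edgeR's quasi-likelihood test, each with its standard error (SE) and a p-value adjusted by the Benjamini-Hochberg method over the 15583 genes. A gene is said to be called when that adjusted p is under 0.05.

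Some libraries stood apart in the markers of other cells, summed as CPM over each list. QZ1-lo replicate 3 had the highest endothelial sum of its population, 309 against 120 to 168 in the other QZ1-lo libraries. QZ1-hi replicate 2 had 208 for mesothelial markers against 29.7 to 55.7, and 871 for airway markers against 291 to 342. QZ1-hi replicate 4 had 6041 for leukocyte markers against 2809 to 3269, and the lowest sum of the contractile genes in its population. Lyz2 alone gave 5763 of those 6041 CPM, so that the leukocyte sum mostly follows this gene. QZ1-lo replicate 4 was also the highest of its population for leukocyte markers (3972 against 2036 to 2677), and QZ1-lo replicate 2 for airway markers (3715 against 1325 to 2546). Erythroid markers ranged from 131 to 1006 in QZ1-hi and from 282 to 3097 in QZ1-lo, with replicate 4 the highest in both populations.

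Of the 9 contractile genes, 4 were called higher in QZ1-hi (Tagln, Myh11, Mylk and Cald1), 1 was called lower (Cnn1) and 4 were not called (Acta2, Actg2, Lmod1 and Synpo2). The number called higher was 2 without QZ1-hi replicate 2, QZ1-hi replicate 3 or QZ1-lo replicate 1, and 1 with library size alone. Over all genes tested, 9.88% were called higher and 8.21% were called lower (the share called higher was 7.88%, 7.1% and 8.03% in those 3 fits and 5.66% with library size alone). The median log2 fold change of the 9 genes was 1.18, beside 0.02 over all genes tested. The populations did not overlap in CPM for Myh11 and Mylk, which were higher, and for Cnn1, which was lower; among all genes tested, 22.6% did not overlap, 11.9% being higher and 10.7% lower. With 1 library fewer there is more room to separate: without QZ1-hi replicate 4, 7 of the 9 and 27.8% of all genes tested did not overlap, and without QZ1-lo replicate 2, 5 of the 9 and 26.2%. With library size alone, 1 of the 9 and 23.4% of all genes tested did not overlap. Summed over the 9 genes, the level was 402, 377, 381 and 266 CPM in QZ1-hi replicates 1 to 4 and 230, 209, 254 and 183 CPM in QZ1-lo replicates 1 to 4. Cald1 made up 67.3% of that sum in QZ1-hi and 76.6% in QZ1-lo, and Mylk 20.4% and 14.5%, so that the sum says little about the other genes.

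**Figure D1:**
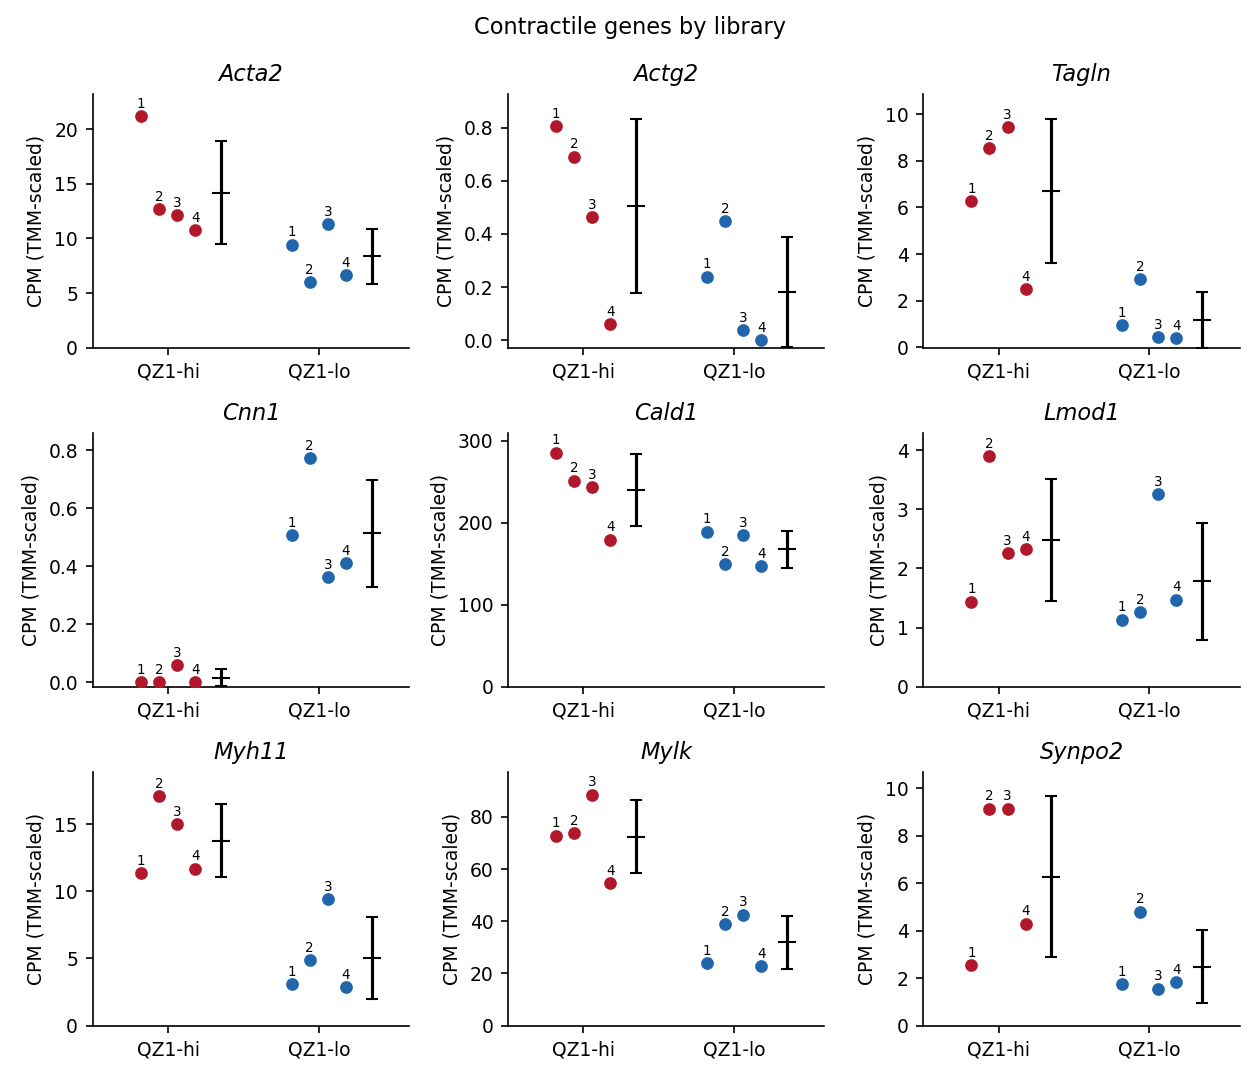
TMM-scaled CPM of the 9 contractile genes in each library (numbered points, 4 per population; the numbers follow the order of the sample list and do not say which libraries share a mouse), with the mean and SD as bars. Myh11 and Mylk were above every QZ1-lo library in all QZ1-hi libraries, and Cnn1 was at 0 in 3 of 4 QZ1-hi libraries.

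Acta2 and Actg2, the actins of vascular and of visceral smooth muscle, were not called. Acta2 (chr19:34241090-34255590, minus strand, GRCm38; Entrez Gene 11475) stood at 21.2, 12.7, 12.1 and 10.8 CPM in QZ1-hi replicates 1 to 4 and at 9.42, 6.02, 11.3 and 6.63 CPM in QZ1-lo replicates 1 to 4. The populations overlapped only through QZ1-hi replicate 4 and QZ1-lo replicate 3, which changed places. The log2 fold change was 0.77 (SE 0.27, edgeR adjusted p = 0.0783). Without QZ1-lo replicate 3 it was 0.95 (adjusted p = 0.0444, edgeR), and with limma it was 0.85 (adjusted p = 0.0377). Without QZ1-hi replicate 1 it was 0.51 (adjusted p = 0.234, edgeR), and with library size alone 0.33 (adjusted p = 0.506, edgeR). Actg2 (chr6:83512905-83536265, minus strand) had few counts everywhere. Its QZ1-hi libraries held 19, 14, 8 and 1 counts and its QZ1-lo libraries 8, 11, 1 and 0 counts, a log2 fold change of 1.47 (SE 1.08, edgeR adjusted p = 0.426). A difference in Actg2 was not detected.

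Tagln, which encodes transgelin (SM22-alpha), an early marker of the smooth muscle lineage that binds actin, had the largest increase of the 9 genes. Its level was 6.27, 8.54, 9.42 and 2.50 CPM in QZ1-hi and 0.954, 2.93, 0.434 and 0.409 CPM in QZ1-lo, in the order of the replicates. QZ1-hi replicate 4 was the lowest of its population and QZ1-lo replicate 2 the highest of its own, and these crossed. The log2 fold change was 2.50 (SE 0.65, edgeR adjusted p = 0.0199). The call was lost without QZ1-hi replicate 2 (2.34, adjusted p = 0.0517, edgeR), QZ1-hi replicate 3 (2.27, adjusted p = 0.0593, edgeR) or QZ1-lo replicate 1 (2.41, adjusted p = 0.0543, edgeR). Without QZ1-lo replicate 2 the log2 fold change was 3.45 (adjusted p = 0.00347, edgeR). Tagln (chr9:45929619-45936058, minus strand) shares 67.9% of its exon bases with genes on the opposite strand, Gm48529 and Pcsk7. The libraries were made with a stranded kit, but the strand setting of the counting is not given in the sources used here, and without it reads of these genes cannot be told apart. Pcsk7, looked up for this reason, was at 22.4 ± 4.94 CPM in QZ1-hi and 20.4 ± 2.24 CPM in QZ1-lo (SD, n = 4 each), and its log2 fold change was 0.13 (SE 0.18, edgeR adjusted p = 0.697).

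Cnn1, which encodes basic calponin, the thin filament protein most restricted to smooth muscle, went the opposite way. It had 0, 0, 1 and 0 counts in QZ1-hi replicates 1 to 4 and 17, 19, 10 and 10 counts in QZ1-lo replicates 1 to 4, so that every QZ1-lo library was above every QZ1-hi library. As a pooled level it was 0.508 CPM in QZ1-lo and 0.0128 CPM in QZ1-hi, a ratio of 39.6 (exact 95% interval for counting error only, 6.82 to 1592). The fitted log2 fold change was -4.81 (SE 1.12, edgeR adjusted p = 0.0118), and it was called in each of the 8 fits that left out a library. All of this rests on 56 counts in QZ1-lo and 1 count in QZ1-hi. Cnn1 passed the filter on low counts only through its QZ1-lo libraries. Its call, its lack of overlap and the 8 fits are therefore no separate support for the difference. Cnn1 (chr9:22099216-22109630, plus strand) shares no exon base with another annotated gene and no 50-base stretch with its relatives. Of these, Cnn3, the acidic calponin of many non-muscle cells, was called higher (log2 fold change 1.32, SE 0.28, edgeR adjusted p = 0.00699) and Cnn2 was called lower (-0.83, SE 0.18, edgeR adjusted p = 0.00791).

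Cald1, caldesmon, was the most abundant of the 9 genes and changed the least of those called. It stood at 286, 252, 244 and 180 CPM in QZ1-hi and 189, 149, 185 and 147 CPM in QZ1-lo. Only QZ1-hi replicate 4 fell within the range of the QZ1-lo libraries. The log2 fold change was 0.52 (SE 0.16, edgeR adjusted p = 0.0416), and the gene was called in 1 of the 8 fits that left out a library, the fit without QZ1-hi replicate 4 (0.66, adjusted p = 0.00614, edgeR). Lmod1, leiomodin 1, which starts new actin filaments in smooth muscle cells, was at 1.44, 3.90, 2.25 and 2.32 CPM in QZ1-hi and 1.13, 1.26, 3.26 and 1.47 CPM in QZ1-lo. The ranges of Lmod1 overlapped, with QZ1-lo replicate 3 above 3 of the 4 QZ1-hi libraries. Its log2 fold change was 0.48 (SE 0.49, edgeR adjusted p = 0.590) with all libraries and 0.94 (adjusted p = 0.243, edgeR) without QZ1-lo replicate 3, but 0.15 (adjusted p = 0.903, edgeR) without QZ1-hi replicate 2 and 0.31 (adjusted p = 0.786, edgeR) without QZ1-lo replicate 1.

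Myh11, the heavy chain of smooth muscle myosin and the motor of the thick filament, was called higher with no overlap. Its level was 11.4, 17.1, 14.97 and 11.7 CPM in QZ1-hi and 3.07, 4.88, 9.41 and 2.86 CPM in QZ1-lo. Among the QZ1-lo libraries, replicate 3 was again the highest. The log2 fold change was 1.45 (SE 0.36, edgeR adjusted p = 0.0166), or 1.93 (SE 0.27, edgeR adjusted p = 0.00110) without QZ1-lo replicate 3, and it was called in each of the 8 fits that left out a library. Myh11 lies at chr16:14194535-14291372 on the minus strand and overlaps no other annotated exon.

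Mylk, the calcium-dependent kinase of the myosin light chain, had the smallest p of the 9 genes. Its level was 72.8, 73.7, 88.6 and 54.6 CPM in QZ1-hi and 24.0, 39.0, 42.5 and 22.7 CPM in QZ1-lo, without overlap. The log2 fold change was 1.18 (SE 0.22, edgeR adjusted p = 0.00397), between 1.04 and 1.34 when each library was left out in turn, and called each time. Of the Mylk exons (chr16:34745210-35002420, plus strand), 6.85% lie opposite other genes. Synpo2, synaptopodin 2 or myopodin, an actin-bundling protein of dense bodies and Z-discs, was at 2.54, 9.14, 9.13 and 4.29 CPM in QZ1-hi and 1.76, 4.80, 1.56 and 1.84 CPM in QZ1-lo. The overlap of Synpo2 came from QZ1-lo replicate 2, above QZ1-hi replicates 1 and 4. Its log2 fold change of 1.33 (SE 0.50, edgeR adjusted p = 0.0928) was 1.86 (adjusted p = 0.0268, edgeR) without QZ1-lo replicate 2. It was also called without QZ1-hi replicate 1 (adjusted p = 0.0423, edgeR), and not in the other 6 fits that left out a library.

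Scaling by library size alone moved the log2 fold changes of all genes down, their median by 0.47 to -0.44, and left only Tagln (2.19, edgeR adjusted p = 0.00600) and Cnn1 (-5.17, edgeR adjusted p = 0.00845) called. Lmod1 turned to -0.07 and Cald1 to 0.08 under that scaling. Relative to the median of all genes, Cald1 was at 0.49 with TMM and 0.52 with library size. In the same order, Mylk was at 1.15 and 1.20, Myh11 at 1.42 and 1.40, and Lmod1 at 0.45 and 0.37. Acta2 was at 0.74 and 0.78, Synpo2 at 1.31 and 1.36, and Actg2 at 1.45 and 1.62. Tagln was at 2.48 and 2.63, and Cnn1 at -4.84 and -4.72. A change of scaling shifts all genes by nearly the same amount. Closeness after taking off the median is therefore built in and does not show that the calls hold. With DESeq2 and with limma, 5 genes were called higher and 1 lower, the fifth being Synpo2 with DESeq2 (adjusted p = 0.0462) and Acta2 with limma. Over all genes with an adjusted p, DESeq2 called 1876 of 17955 higher and 1612 lower. Of 15583 genes, limma called 1697 higher and 1289 lower, where edgeR with TMM called 1540 and 1280.

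**Figure D2:**
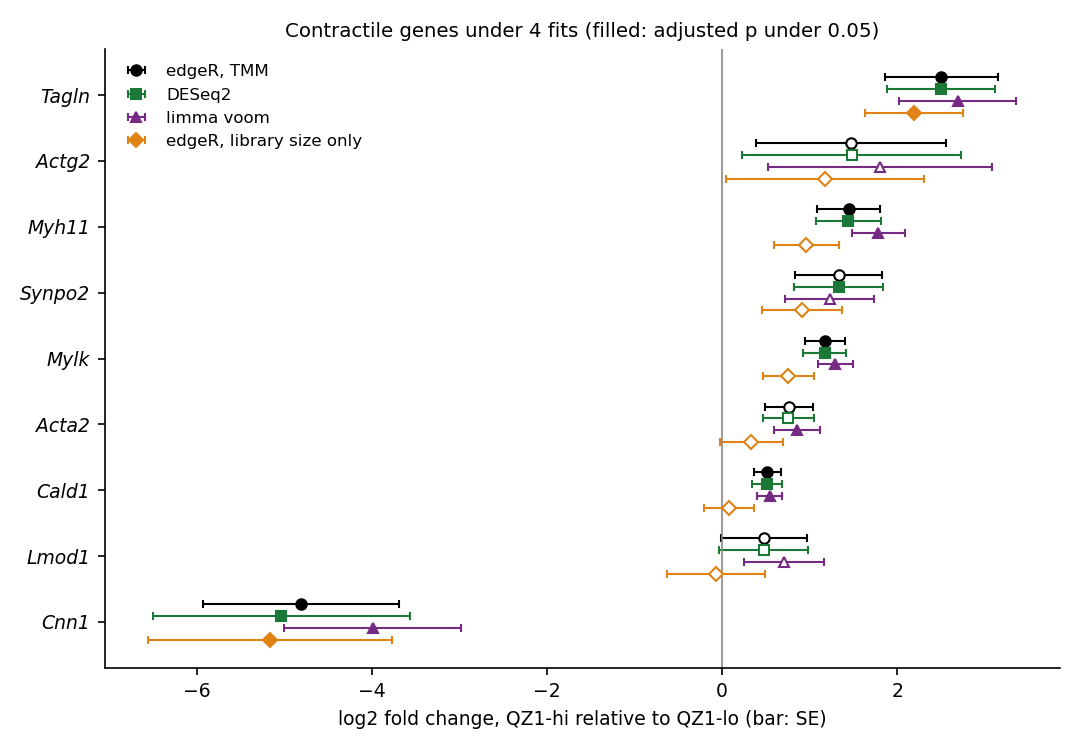
Log2 fold change (QZ1-hi relative to QZ1-lo, bars are the SE) of the 9 contractile genes under 4 fits; filled symbols have an adjusted p under 0.05. Tagln and Cnn1 were filled in all 4, and scaling by library size alone moved every gene to lower values.

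Between genes, levels were set side by side only as CPM per kilobase of exon. In QZ1-hi the order was Cald1 (19.9 ± 3.68, SD, n = 4), Acta2 (6.47 ± 2.15), Mylk (6.43 ± 1.24), Tagln (3.36 ± 1.55), Myh11 (1.81 ± 0.362), Lmod1 (0.628 ± 0.261), Synpo2 (0.480 ± 0.258), Actg2 (0.324 ± 0.211) and Cnn1 (0.00528 ± 0.0106). The libraries of neighbours in that order overlapped for Acta2 and Mylk, for Tagln and Myh11, and along Lmod1, Synpo2 and Actg2, and were apart elsewhere. In QZ1-lo, Cald1 (13.9 ± 1.87), Acta2 (3.80 ± 1.13) and Mylk (2.85 ± 0.903) again led, with Cald1 apart from Acta2, and Acta2 and Mylk overlapping. Below them, Myh11 (0.665 ± 0.400), Tagln (0.594 ± 0.599), Lmod1 (0.451 ± 0.252), Synpo2 (0.190 ± 0.118), Cnn1 (0.187 ± 0.0671) and Actg2 (0.116 ± 0.133) overlapped each with the next. Exon lengths count all annotated exons, so a gene that uses only part of them is set too low on this scale.

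**Figure D3:**
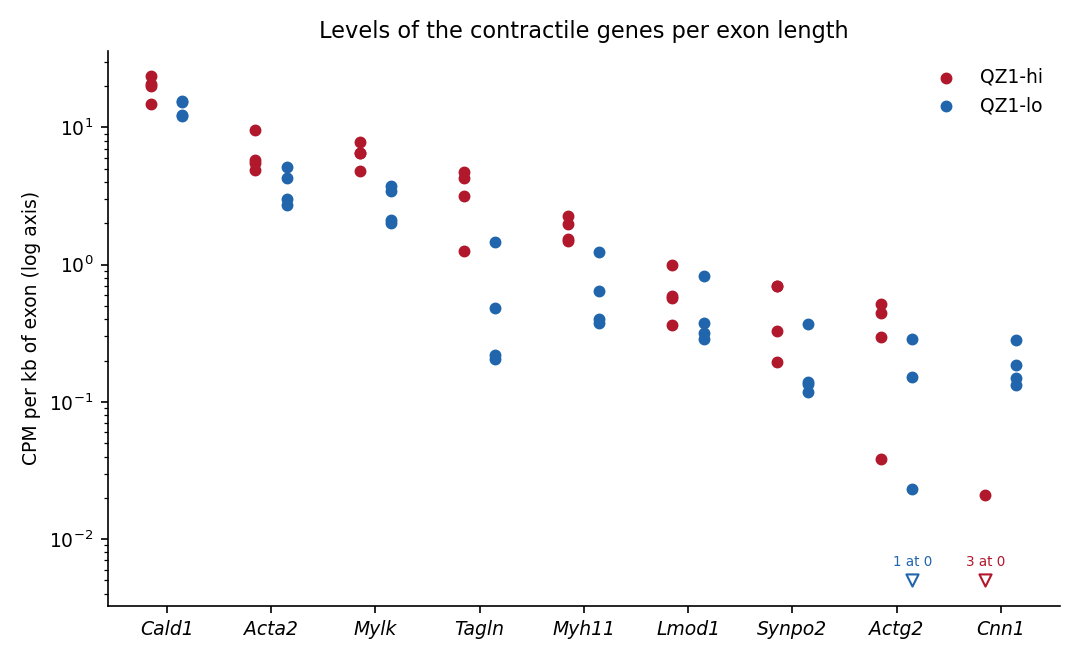
CPM per kilobase of exon (log axis) of each contractile gene in each library, ordered by the QZ1-hi mean; open triangles mark libraries at 0. Cald1 was the highest in both populations, and Cnn1 was the lowest in QZ1-hi (3 libraries at 0) but lay near Synpo2 in QZ1-lo.

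The genes whose pattern over the 8 libraries lay nearest to that of Acta2, by the root mean square difference of log2 CPM centred on each gene's mean, were Mycn (0.15), Lmf1 (0.15), Ccdc9b (0.16), Slc34a2 (0.16) and Fasn (0.18). Of the contractile genes, Cald1 was the nearest to Acta2 (0.26), at rank 26 of all genes tested. Nearest to Tagln were Cyp1b1 (0.42), Calhm2 (0.46), Mrgprf (0.46), Pcdhb17 (0.47) and Ndn (0.48), with Actg2 (0.85) at rank 173. Nearest to Myh11 were Dmpk (0.22), Eml1 (0.24), Pcolce (0.29), Hunk (0.30) and Nrm (0.31), with Mylk (0.35) at rank 18. On the same scale, Acta2 lay 1.42 from Tagln and 0.68 from Myh11. These distances describe 8 libraries that share depth and composition, and carry no test.

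Promoter windows of RefSeq (GRCm38.p6, from 250 bases before to 50 bases after a start) were given for 6 of the 9 genes. None was given for Tagln, Myh11 or Actg2, and sequence outside the windows was not searched. The windows were searched for the CArG box, the binding sequence of serum response factor (CC, then 6 bases of A or T, then GG, the same on both strands), and for TATAAA on the strand of the gene. No window of these 6 genes held a CArG box, which occurred in 1.63% of all 32851 windows. With 1 of the 6 inner bases allowed to be another, a form tried after the first search, Acta2 alone had matches, 2 of them, and 9.98% of all windows had at least 1. They are shown because no other contractile gene with a window had a match, with the match in capitals, on the minus strand and running towards the gene.
Acta2 chr19:34255438-34255467: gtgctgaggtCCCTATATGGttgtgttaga
Acta2 chr19:34255388-34255417: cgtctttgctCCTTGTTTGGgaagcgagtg
They lie 84 to 75 and 34 to 25 bases before the RefSeq start, inside the longer first exon that GENCODE M21 gives. TATAAA was present only in a window of Cald1, 186 to 181 bases before its start, and in 8.32% of all windows. A match of letters is not a bound site.

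The rest of the contractile machinery did not move as a block. Of 7 other genes listed with the thin and thick filaments, 3 were called higher, 2 were called lower and 2 were not called, with a median log2 fold change of -0.13. Mustn1, which encodes a small nuclear protein of muscle and no part of the filaments, rose by a log2 fold change of 2.53 (SE 0.62, edgeR adjusted p = 0.0155), Myl9, the light chain that Mylk phosphorylates in smooth muscle, by 2.00 (SE 0.44, edgeR adjusted p = 0.00892), and Smtn, smoothelin, a marker of contractile smooth muscle, by 1.96 (SE 0.30, edgeR adjusted p = 0.00114). Smtn stood at 24.6, 21.8, 32.8 and 20.6 CPM in QZ1-hi and 5.87, 5.37, 10.6 and 3.77 CPM in QZ1-lo. Of the tropomyosins, which lie along the thin filament, 2 were called lower, Tpm1 by -0.87 (SE 0.14, edgeR adjusted p = 0.00149) and Tpm2 by -0.78 (SE 0.20, edgeR adjusted p = 0.0201), whereas the other two, Tpm3 (0.08, adjusted p = 0.706, edgeR) and Tpm4 (-0.06, adjusted p = 0.844, edgeR), listed here with the paralogues, were not called. Without QZ1-hi replicate 3, QZ1-hi replicate 4 or QZ1-lo replicate 1, 1 gene of this list was called lower. Tpm1, the most abundant of these 7 genes, was at 286, 256, 201 and 215 CPM in QZ1-hi and 485, 393, 459 and 416 CPM in QZ1-lo, without overlap. Tropomyosins are also made by epithelial cells. The study lists Cdh1 and Epcam for airway as well as alveolar epithelium. Of the 11 alveolar epithelial markers, 6 were called lower, among them Cdh1 (-1.34) and Epcam (-1.17), and 2 higher, Sftpc (0.78) and Pdpn (0.72); their part in the values of Tpm1 and Tpm2 was not tested.

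Of 12 genes of dense bodies and the cytoskeleton, 5 were called higher and 4 lower (median log2 fold change 0.51). Des, desmin, the intermediate filament of muscle cells, rose from 6.25 ± 3.83 to 38.9 ± 15.5 CPM (SD, n = 4 each; log2 fold change 2.64, edgeR adjusted p = 0.00195), Csrp2 rose by 1.26 and Vim, vimentin, the most abundant of them, by 1.19. Actn1, an actin crosslinker of many cells, was lower by -0.89 (SE 0.13), with Dstn at -0.70 and Csrp1 at -0.62. Without QZ1-hi replicate 2, QZ1-hi replicate 3 or QZ1-lo replicate 1, 3 of these 12 genes were called higher, and with library size alone 2 were. Of 9 contraction signalling genes tested out of 12, 2 were called higher and 3 lower (median -0.04). Those higher were Prkg1 (3.68, SE 0.74, edgeR adjusted p = 0.00517), the kinase through which nitric oxide relaxes smooth muscle, and Ppp1r14a (2.65, SE 0.54, edgeR adjusted p = 0.00604), which encodes CPI-17, an inhibitor of myosin phosphatase. Those lower included Ppp1cb (-0.43) and Rock1 (-0.34), which most cells express, and 1 to 2 genes of this list were called lower when each library was left out in turn. Among 6 ion channel and calcium handling genes tested out of 8, none was called higher and Cacna1c (-0.76) and Itpr1 (-0.57) were called lower; the most abundant, the calcium pump gene Atp2a2, was at -0.26 (edgeR adjusted p = 0.141). The number called lower was 3 without QZ1-hi replicate 2, QZ1-hi replicate 4 or QZ1-lo replicate 1 and with limma, 4 with DESeq2, and 5 with library size alone, Atp2a2 among them (-0.72, edgeR adjusted p = 0.0457).

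Of 8 transcription factor genes of smooth muscle tested out of 9, 5 were called higher and none lower, with a median log2 fold change of 2.01; 1 was called lower without QZ1-hi replicate 4 or with library size alone. Foxf1, a factor of lung mesenchyme and endothelium, had 3.26 (SE 0.65, edgeR adjusted p = 0.00488), Mef2c had 2.58 (SE 0.41, edgeR adjusted p = 0.00134) and Heyl, a target of Notch, had 2.21 (SE 0.53, edgeR adjusted p = 0.0140). Klf4, known to repress contractile genes and also abundant in endothelium, was the most abundant at 229 ± 46.0 CPM in QZ1-hi and 65.1 ± 5.36 CPM in QZ1-lo (SD, n = 4 each). Myocd, the coactivator myocardin, was not tested, with 3, 29, 3 and 10 counts in QZ1-hi and 4, 5, 2 and 0 counts in QZ1-lo. Of 13 paralogues of the contractile genes tested out of 17, 2 were called higher (Cnn3 and Myh10) and 2 lower (Myh14 and Cnn2), with a median of -0.14; 1 was called higher with library size alone and in 5 of the 8 fits that left out a library. The non-muscle actin Actb, the most abundant, was at 2515 ± 84.7 CPM in QZ1-hi and 2688 ± 144 CPM in QZ1-lo (log2 fold change -0.10, edgeR adjusted p = 0.653), and the non-muscle myosin gene Myh14, of epithelial cells, fell by 1.43 on the log2 scale (SE 0.15, edgeR adjusted p = 0.000278).

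**Figure D4:**
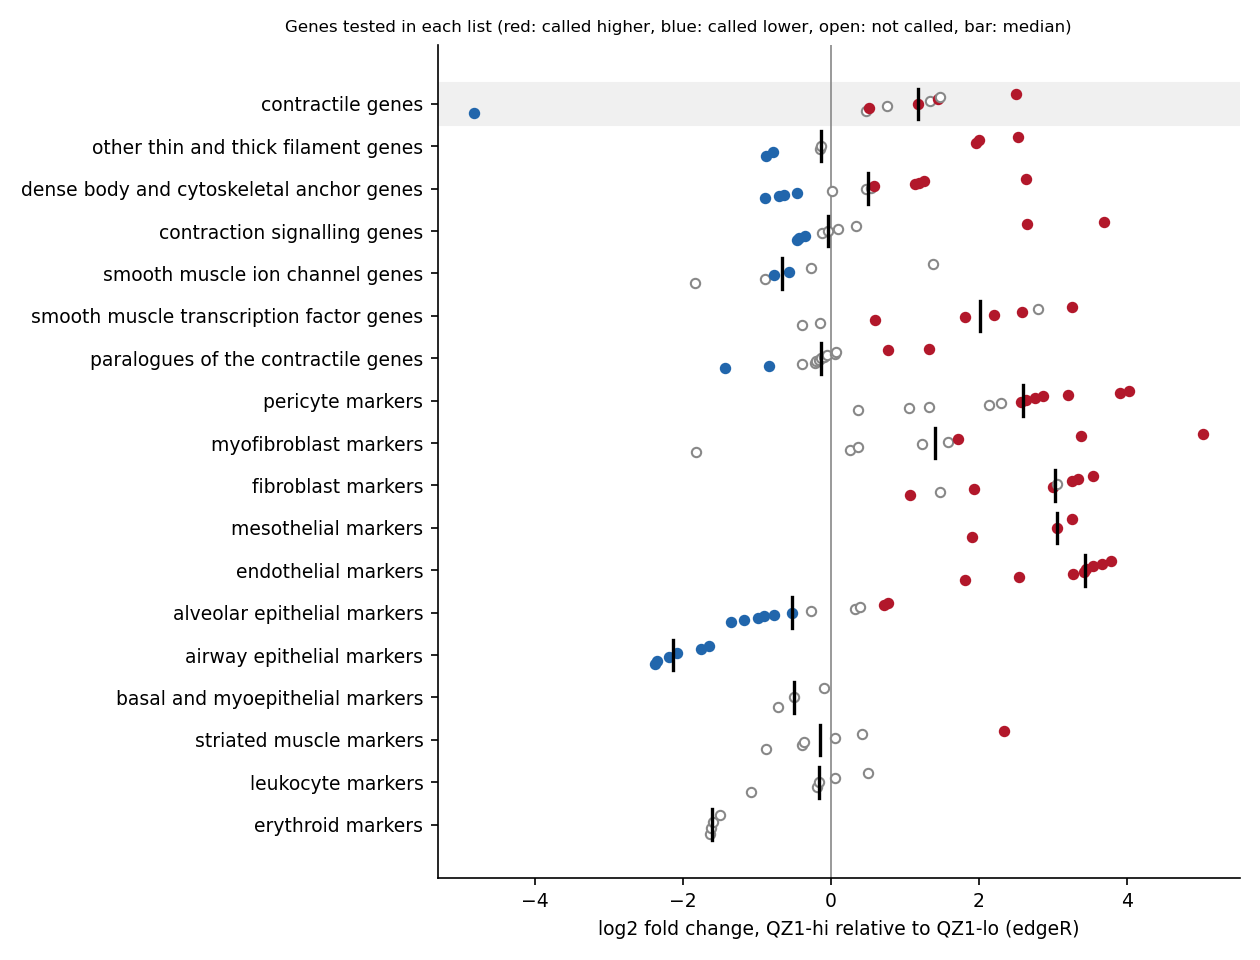
Log2 fold change (edgeR, QZ1-hi relative to QZ1-lo) of every tested gene in the contractile list (grey band) and 17 other lists, with the median as a bar; red and blue points were called higher and lower, and open points were not called. The contractile genes had a median of 1.18 with Cnn1 far to the left, whereas all 8 endothelial markers were called higher and all 6 airway markers lower.

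Markers of several cell types that can express contractile genes were called higher as well. Of 12 pericyte markers, 7 were called higher and none lower (median 2.60), with a summed level of 303, 314, 489 and 269 CPM in QZ1-hi and 37.8, 55.4, 82.4 and 25.9 CPM in QZ1-lo. Abcc9 (4.03), Cd248 (3.91) and Kcnj8 (3.21), genes of pericytes and mural cells, had the largest log2 fold changes among those called, and Nes was the most abundant. Of 8 myofibroblast markers tested out of 9, 3 were called higher (median 1.41), led by Aspn (5.03), Pdgfra (3.38) and Enpp2 (1.72), and the most abundant, Tgfbi, was at 0.37 (edgeR adjusted p = 0.0735), or -0.12 with library size alone. Aspn, a proteoglycan gene of the matrix, stood at 2.46, 2.17, 35.8 and 12.9 CPM in QZ1-hi, high in replicates 3 and 4, and was not called with limma (adjusted p = 0.189). Wif1, an inhibitor of Wnt, had a negative log2 fold change (-1.82, SE 0.82, edgeR adjusted p = 0.168). With limma, or without QZ1-hi replicate 2 or QZ1-lo replicate 1, 3 or 4, 2 of these markers were called higher. Of 8 fibroblast markers tested out of 10, 6 were called higher (median 3.03), with Col1a2 at 3.54, Pi16 at 3.34, Col1a1 at 3.26 and Fn1 the most abundant. The 3 mesothelial markers were called higher, Wt1 by 3.26, Upk3b by 3.06 and Msln by 1.91. Without QZ1-hi replicate 2, none of the 3 mesothelial markers was called (edgeR), and 1 to 3 were in the other fits that left out a library. With all libraries, the median of the contractile genes, 1.18, was below each of these medians. Without QZ1-hi replicate 3 it was 1.04, above the 0.83 of the myofibroblast markers (edgeR). The part of each cell type in the contractile genes was not tested.

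All 8 endothelial markers were called higher (median 3.43), with Tek at 3.79, Tie1 at 3.67 and Cdh5, the most abundant, at 3.54. Their summed level was 1748, 1062, 2306 and 1038 CPM in QZ1-hi and 126, 168, 309 and 120 CPM in QZ1-lo, so that QZ1-lo replicate 3, the highest of its population for Acta2, Myh11, Mylk and Lmod1, was also the highest for these. The same library was the highest of its population for the pericyte, alveolar epithelial and striated muscle sums too. QZ1-hi replicate 4 was the lowest of its population for the endothelial, fibroblast, pericyte and alveolar epithelial sums, and also for Acta2, Tagln, Actg2, Mylk and Cald1. All 6 airway markers were called lower (median -2.13): Scgb1a1, the secretoglobin of club cells and the most abundant, by -2.38, Scgb3a2 by -2.35 and Ccdc78 by -2.18. Without QZ1-hi replicate 3, QZ1-hi replicate 4 or any single QZ1-lo library, 5 of the 6 were called lower (edgeR). The airway sum was 291, 871, 337 and 342 CPM in QZ1-hi and 1325, 3715, 2546 and 1812 CPM in QZ1-lo, and Cnn1, also lower, was highest in QZ1-lo replicate 2, as that sum was. QZ1-lo replicate 1, next in Cnn1, had the lowest airway sum of its population, and the part of airway tissue in the Cnn1 counts was not tested. Of 11 alveolar markers, 2 were called higher (Sftpc, the most abundant, 0.78, and Pdpn, 0.72) and 6 lower (median -0.52). Cdh1, Epcam and Aqp5 (-0.98) fell the most, and the study also lists Cdh1 and Epcam for club and ciliated cells. The alveolar sum was 7136 ± 1824 CPM in QZ1-hi and 5773 ± 1014 CPM in QZ1-lo (SD, n = 4 each). Of the 11 markers, 1 was called higher in 4 of the 8 fits that left out a library, and none with library size alone.

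**Figure D5:**
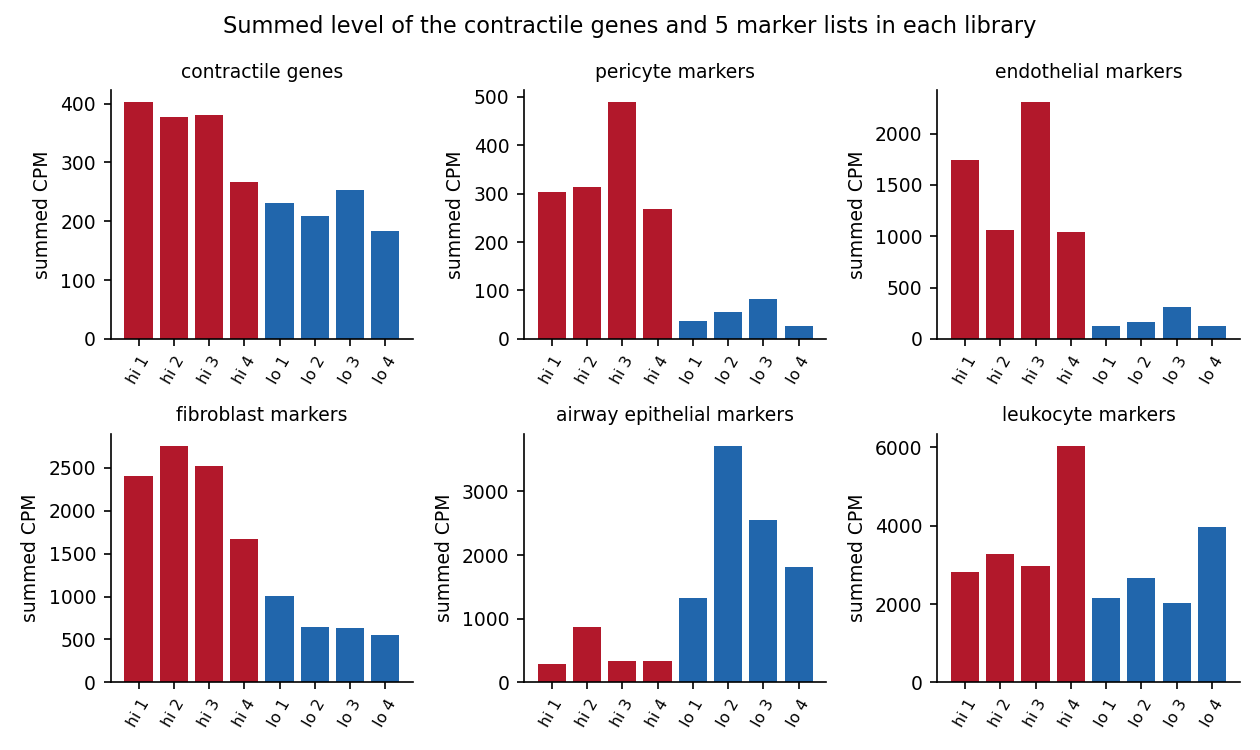
Summed CPM of the contractile genes and of 5 marker lists in each of the 4 QZ1-hi and 4 QZ1-lo libraries (bars start at 0). The contractile sum was 266 to 402 in QZ1-hi and 183 to 254 in QZ1-lo, while the endothelial sum was at least 1038 in QZ1-hi and at most 309 in QZ1-lo.

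Of the markers of other muscle and contractile cells tested, 1 was called, beside 18.1% of all genes tested. Of 5 basal and myoepithelial markers, 3 were tested and none was called, with a sum of 1.21 to 7.21 CPM per library; Trp63 was the most abundant, and Krt5 and Oxtr were at 0 in at least 4 libraries. Of 12 striated muscle markers, 6 were tested and 1 was called higher (Myl4, 2.34, edgeR adjusted p = 0.0493; called with DESeq2 and limma, but not with library size alone or in any of the 8 fits that left out a library), with a sum of 13.5 to 31.7 CPM; Acta1 was the most abundant, and Nppa, Ckm and Myh4 were at 0 in at least 4 libraries. None of the 5 leukocyte markers was called, but they were not absent from cells sorted as CD45- and CD11b-. Ptprc, which encodes CD45 and was looked up because the sort used it, was at 131 ± 64.2 CPM in QZ1-hi and 125 ± 30.0 CPM in QZ1-lo (SD, n = 4 each), and Lyz2, the most abundant, was at 3600 ± 1453 and 2534 ± 859 CPM (log2 fold change 0.51, edgeR adjusted p = 0.275, and -0.01 with library size alone). The 4 erythroid markers, led by Hba-a2 (-1.59, edgeR adjusted p = 0.139), were not called, but 3 were called lower without QZ1-lo replicate 1 and all 4 with library size alone.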

How the data were processed

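The authors counted reads on genes with Rsubread and deposited raw counts per gene, not normalized, for 27179 Entrez Gene identifiers in 8 libraries. The submitters' processing notes name mm10 and DESeq2; the aligner, annotation and strand setting are not given in the sources used here. A symbol was found for 25275 identifiers and none for 1904; all 156 listed genes matched. Exon positions, lengths and shared sequence came from GENCODE M21 on GRCm38, and promoter windows from RefSeq on GRCm38.p6. No 2 libraries held the same values.

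The analysis used edgeR 4.0.16 in R 4.3.3 (TMM; filterByExpr with a minimum count of 10 and minimum total of 15; quasi-likelihood test with population as the only factor), over 15583 genes, with a common dispersion of 0.113, TMM factors from 0.660 to 1.35 and Benjamini-Hochberg adjustment at 0.05. Each SE was obtained as the absolute log2 fold change over the root of the F statistic. Libraries were compared without pairing. Alternatives were DESeq2 1.42.0, limma 3.58.1 (voom with quality weights), DESeq2 size factors, library size only, removal of mitochondrial and ribosomal RNA genes, other filters, robust shrinkage, a threshold of 0.01 and each library left out. Data were also simulated for 15583 genes, with 4-fold changes in 200. Of these, 194 were tested by edgeR, which called 191 (98.5%) and 13 unchanged genes. Every simulated gene had the common dispersion, with no shift in composition between the populations. The changes were larger than those of Myh11, Mylk and Cald1, so the simulation does not give the power for these genes.

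The contractile genes and the lists were chosen with earlier results of these data known. From each other list the text names the genes called with the largest change, up to 3 in each direction, and the most abundant gene, except 1 gene that is not reported here; for Acta2, Tagln and Myh11 it names the 5 genes nearest in pattern. Pcsk7, Ptprc, Myocd, Tpm3, Tpm4 and Wif1, and the CArG form with 1 other base, were taken up after values were seen.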

Additional observations from a re-analysis of the deposited data

Results flagged for a closer look

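In each population of 4 libraries, the highest or lowest library was set against the others by Dixon's criterion (a gap to its nearest neighbour, as a share of the range, above the 95% critical value) for 70 genes and totals, 140 groups in all. Of these, 11 passed, Cnn1 by construction, since a single count in 1 library of 4 always passes, and chance alone is expected to pass about 1 group in 20. Among the contractile genes, Cnn1 had its only QZ1-hi count in replicate 3 (0.0578 CPM, the others at 0), Lmod1 was at 3.26 CPM in QZ1-lo replicate 3 against 1.13 to 1.47 in the others, and Synpo2 was at 4.80 CPM in QZ1-lo replicate 2 against 1.56 to 1.84. Mustn1 was at 2.57 CPM in QZ1-lo replicate 3 against 0.417 to 0.692. Fn1 was at 931 CPM in QZ1-lo replicate 1 against 457 to 533. In QZ1-hi replicate 2, Wt1 was at 27.3 CPM against 5.78 to 8.10, Upk3b at 126 against 16.4 to 26.4, Scgb1a1 at 796 against 268 to 301 and Trp63 at 3.90 against 0.405 to 0.834. Upk3b was also high in QZ1-lo replicate 2, at 16.8 CPM against 1.15 to 3.22. Lyz2 was at 5763 CPM in QZ1-hi replicate 4 against 2696 to 3122.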

How the results depend on the processing

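With a stricter threshold of 0.01, 902 genes were higher and 665 lower, and of the contractile genes 1 (Mylk) was higher and 0 were lower. Scaling by library size only gave 882 genes higher and 2509 lower; of the contractile genes 1 was called higher, 1 did not overlap, and the log2 fold change of Lmod1 was reversed, at -0.071. Cnn1 was outside the fits with at least 10 counts in every library and without mitochondrial and ribosomal RNA genes, so that 0 contractile genes were called lower there (edgeR; 1 in the fit with all genes). Leaving out each library in turn gave 2 to 4 contractile genes called higher, 1 called lower each time and 3 to 7 without overlap, the 7 being without QZ1-hi replicate 4 and 5 without QZ1-lo replicate 2 (over all genes tested, 27.8% and 26.2% there and 22.6% with all libraries); 2 were called higher without QZ1-hi replicate 2, QZ1-hi replicate 3 or QZ1-lo replicate 1. Actg2 could be fitted in 4 of those 8 fits. The causes were not tested beyond these constructions. No paired analysis was possible on known pairs because the labels give no mouse or replicate number. The numbers used here only follow the order of the sample list, and a fit with them as pairs was not run. Replicate 2 was highest in both populations for the airway, mesothelial, basal and myofibroblast sums. Replicate 3 was so for the endothelial, pericyte and striated muscle sums, and replicate 4 for the leukocyte and erythroid sums. For the alveolar and fibroblast sums the highest numbers differed. Number by number, Acta2, Actg2, Synpo2 and the mitochondrial share were always higher in QZ1-hi, and Lmod1 was not. The floor of 3 counts, 0.0894 to 0.179 CPM, lies above the level of Cnn1 in every QZ1-hi library.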
